A study of Mus musculus with 41 samples.

Results

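The Rhox genes are a family of X-linked reproductive homeobox genes that lie side by side in the mouse genome, and 10 of them (Rhox1, Rhox4b, Rhox5, Rhox6, Rhox8, Rhox9, Rhox10, Rhox11, Rhox12 and Rhox13) are described here. They were taken by symbol, after gene identifiers were matched to GENCODE release M21, from 2 count tables of 55536 genes each and from 1 table of RHOX10 binding peaks. GENCODE lists 42 genes with a Rhox symbol, so 32 others were not members. RHOX10, the product of one member, was the transcription factor under study.

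The RNA-seq samples were germ cells of C57BL/6 mice, sorted for the green fluorescence of an OCT4-eGFP reporter. The 2 genotypes, named by their labels as wild-type and Rhox10-null, had 4 libraries each, pooling the testes of 3 animals per library, and the age of the animals is not given in the sources used here. The iSLAM-seq and CUT&Tag samples were germline stem (GS) cells, a culture of spermatogonia started from C57BL/6 testes at postnatal day 0 to 1. In every GS group, the controls included, endogenous Rhox10 was knocked down with an shRNA lentivirus and the infected cells were sorted for GFP. iSLAM-seq (RNA sequencing after a factor is switched on) compared a Rhox10-ERT2-mCherry fusion, which responds to 4-hydroxytamoxifen, with an ERT2-mCherry empty vector (Ctrl), at 0, 0.5, 1, 2, 4 and 8 h. It had 2 biological replicates per vector and time, 24 libraries in all. CUT&Tag cuts DNA where an antibody binds. Its 3 groups of 3 libraries were an antibody to the HA tag in cells with an HA-tagged Rhox10 vector that the shRNA does not target, the same antibody in cells with an empty vector, and a control IgG in cells with the HA-tagged Rhox10 vector. The promoters that drive the vectors are not given in the sources used here.

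Homeobox genes encode transcription factors that bind DNA through a homeodomain, and many such proteins recognise a core of the letters TAAT. Rhox genes are known for their expression in the testis, ovary and placenta. Rhox5, also called Pem, is the founding member and is regulated by androgen in Sertoli cells, the somatic cells that nurse the germ cells. Rhox8 is also known from Sertoli cells, Rhox10 and Rhox13 from germ cells, and Rhox6 and Rhox9 from the placenta.

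The 8 RNA-seq libraries held 6602089 to 8278887 reads and the 24 iSLAM-seq libraries 9419615 to 12645845. A single non-member gene, Gm42418, took 51.0% to 59.4% of the RNA-seq reads. Its share was lower in each library labelled Rhox10-null than in each labelled wild-type, so CPM of library totals carries this difference. A count of 0 allows up to 3 reads, which in counts-per-million units of a library's total (CPM) is 0.362 to 0.454 in RNA-seq and 0.237 to 0.318 CPM in iSLAM-seq, and this covers counting error only. Markers of other cells were present in the sorted cells, and their CPM of library totals differed between the genotypes. The summed level of 10 Sertoli markers, all detected, was 704 to 755 CPM in the libraries labelled Rhox10-null and 525 to 575 CPM in those labelled wild-type, while that of 11 germ cell markers was 112 to 124 CPM and 192 to 196 CPM. Erythroid markers summed to 52.2 to 61.8 CPM against 0.966 to 2.88 CPM. On library totals the 13538 tested genes were themselves shifted upward in the libraries labelled Rhox10-null, by a median of 0.35 (log2), and the Sertoli sums carry this shift. Under TMM scaling, which centres the typical gene on no change, 2 of 10 Sertoli markers were called higher and 2 lower (median -0.08). On that scale 7 of 9 germ cell markers were lower and 4 of 4 erythroid markers higher. In bulk libraries, fewer cells of a type and less RNA per cell cannot be told apart.

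The members span X:37213804-38306028 together with the other Rhox genes in GRCm38 coordinates, a region of 1092.2 kb, in the order Rhox1, Rhox4b, Rhox5, Rhox6, Rhox8, Rhox9, Rhox10, Rhox11, Rhox12 and Rhox13. The annotation places Rhox5 (ENSMUSG00000095180) at X:37804842-37808876 on the plus strand and Rhox8 (ENSMUSG00000064137) at X:37874778-37878944 on the minus strand. It places Rhox10 (ENSMUSG00000053909) at X:38066475-38071691 on the plus strand and Rhox13 (ENSMUSG00000050197) at X:38121219-38129967 on the plus strand. The most abundant member was not the same one in the 2 RNA assays. In the sorted cells labelled wild-type, Rhox8 was the most abundant member at 16.6 ± 2.23 CPM per kb of exon (SD, n = 4). Rhox5 (1.46 ± 0.187) and Rhox13 (1.44 ± 0.303) followed and did not differ beyond their spread, then Rhox1 (0.971 ± 0.464) and Rhox10 (0.938 ± 0.604), which also did not. Rhox4b, Rhox6 and Rhox9 lay between 0.0778 and 0.249 CPM per kb. Rhox11 and Rhox12 had 0 reads in all 8 libraries.

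In the GS cultures the order was another one. In the 12 empty-vector libraries Rhox13 was the most abundant member at 87.6 ± 4.58 CPM per kb (SD, n = 12), followed by Rhox5 at 7.93 ± 1.85 and Rhox6 at 6.25 ± 1.95, which did not differ beyond their spread. Rhox10 (1.44 ± 0.916) and Rhox9 (1.31 ± 0.351) formed the next pair within their spread, and Rhox12 stood at 0.427 ± 0.325. Rhox1 and Rhox8 had 0 reads in all 24 GS libraries, Rhox4b had at most 2 in any, and Rhox11 had reads in only 2 libraries, both with Rhox10-ERT2: 3 reads in replicate 1 at 0.5 h and 5 in replicate 1 at 8 h. The iSLAM-seq kit reads 3′ ends, so its reads need not scale with gene length, and on the scale of plain CPM Rhox6 (6.31 ± 1.97) stood beside Rhox5 (5.98 ± 1.39). Of the 10 Sertoli markers, Amh had 0 reads in all 24 GS libraries and Fshr and Gata4 had at most 4 and 10, while the other 7 were present. Among these Sox9 stood at 293 ± 84.5 CPM with the empty vector (SD, n = 12), Inhbb at 57.3 ± 6.11, Clu at 55.8 ± 7.78 and Wt1 at 12.5 ± 1.59 CPM. With that vector the 10 Sertoli markers summed to 304 to 554 CPM. The 5 peritubular and stromal markers summed to more, 673 to 967 CPM, and the 11 germ cell markers to 1536 to 2221 CPM.

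**Figure D1:**
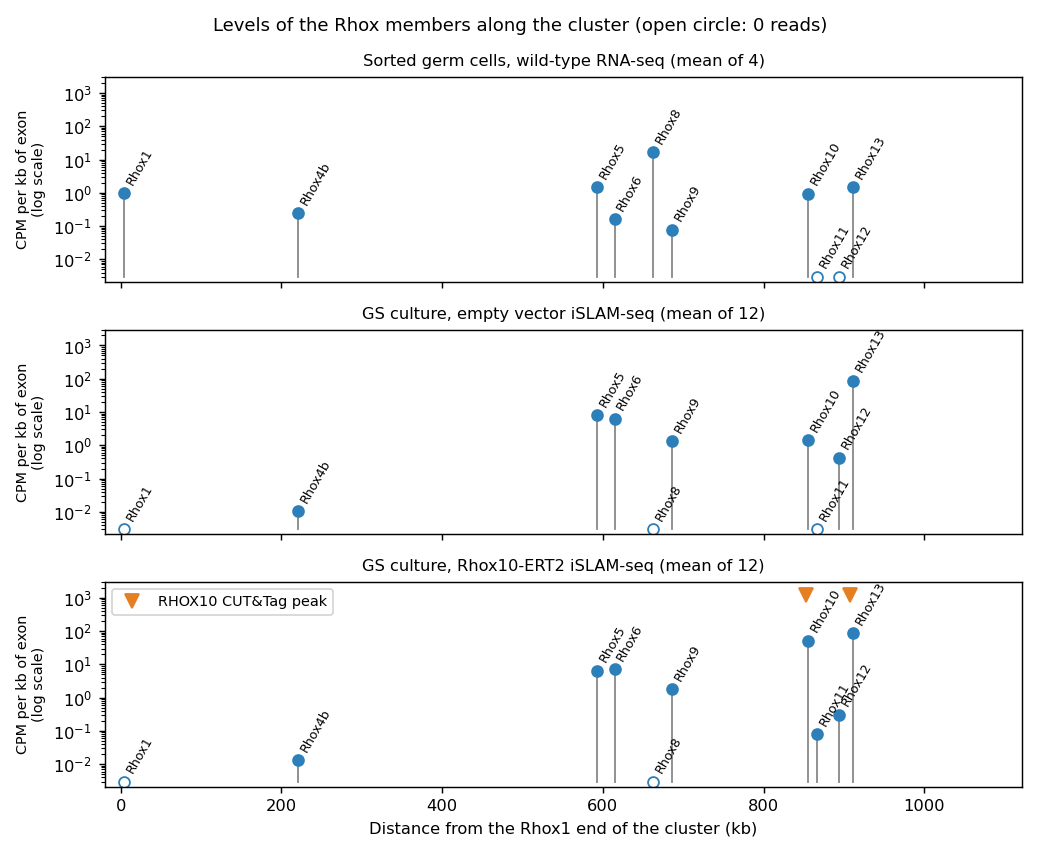
Mean level of each of the 10 members (CPM per kb of exon, log scale) against its distance from the Rhox1 end of the cluster (kb), in 4 RNA-seq libraries labelled wild-type, 12 empty-vector and 12 Rhox10-ERT2 iSLAM-seq libraries. Open circles mark members with 0 reads and triangles mark RHOX10 peaks. Rhox8 leads in the sorted cells, Rhox13 leads in both sets of cultures, and both peaks lie at the Rhox10 and Rhox13 end.

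The CUT&Tag table held 5147 peaks, each listing all 3 RHOX10 libraries, of which 168 were on the X chromosome and 2 within the cluster. Both were annotated to members, Rhox10 and Rhox13, so 2 of 10 members had a peak, against 20.6% of 21924 protein-coding genes and 16% of 948 X-linked ones. No test was made. No peak was annotated to another Rhox gene, and 4 of the 24 other protein-coding genes in the region or within 500 kb of its ends had one (Nkap, Rnf113a1, Slc25a5 and Upf3b).

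The Rhox10 peak, X:38066406-38066893 in GRCm38, was 488 bases long and had a score of 83.9, a value given by the authors. Whether the IgG and empty-vector libraries served as background for the peak calls is not given in the sources used here. The score was below the median of 127.5 over all peaks and close to the median of 83.6 on the X chromosome. It covered 69 bases upstream of the gene, 122 bases of its 5′ untranslated region and 297 coding bases of exon 1 of 3. The cells with peaks carried an HA-tagged Rhox10 vector, so reads from that vector and from the endogenous exon cannot be told apart in the exonic bases.

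The Rhox13 peak, X:38121519-38122101, was 583 bases long and had a score of 56.4, with 19.0% of peaks scoring lower. It covered the last 304 bases of exon 1 of 3, all coding, and ran on into intron 1. Its centre was 591 bases downstream of the GENCODE start of Rhox13, and the authors' table gives 970 bases from the start it used. Neither peak remained when peaks were kept only above the median score.

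The bases below are shown because they are the upstream windows of the 2 members with a peak and bases within those peaks. The Rhox10 peak overlaps the end of its upstream window, and the Rhox13 peak lies downstream of its window without touching it. The 2 upstream windows are the 250 bases before the RefSeq transcription start of each gene in GRCm38.p6, and the 2 others are read from the GRCm38.p6 genome at the peaks. All run 5′ to 3′ on the plus strand, and capitals mark TAAT on either strand (TAAT or ATTA).
Rhox10 upstream, chrX:38066225-38066474: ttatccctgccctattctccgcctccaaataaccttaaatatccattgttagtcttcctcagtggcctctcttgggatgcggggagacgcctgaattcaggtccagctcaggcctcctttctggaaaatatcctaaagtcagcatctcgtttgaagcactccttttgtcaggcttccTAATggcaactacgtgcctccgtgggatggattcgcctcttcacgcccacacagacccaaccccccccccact
Rhox10 coding part of the peak, chrX:38066597-38066893: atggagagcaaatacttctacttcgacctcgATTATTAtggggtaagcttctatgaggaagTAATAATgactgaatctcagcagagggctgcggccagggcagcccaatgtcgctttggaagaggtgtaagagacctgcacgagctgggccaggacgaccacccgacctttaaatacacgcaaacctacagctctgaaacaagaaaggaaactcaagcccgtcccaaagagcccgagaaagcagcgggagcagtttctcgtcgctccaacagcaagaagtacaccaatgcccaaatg
Rhox13 upstream, chrX:38120590-38120839: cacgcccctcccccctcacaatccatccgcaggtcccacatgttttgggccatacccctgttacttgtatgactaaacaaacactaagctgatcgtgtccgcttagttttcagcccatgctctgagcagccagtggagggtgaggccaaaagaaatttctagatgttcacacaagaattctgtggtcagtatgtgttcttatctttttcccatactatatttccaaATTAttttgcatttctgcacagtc
Rhox13 peak centre, chrX:38121661-38121960: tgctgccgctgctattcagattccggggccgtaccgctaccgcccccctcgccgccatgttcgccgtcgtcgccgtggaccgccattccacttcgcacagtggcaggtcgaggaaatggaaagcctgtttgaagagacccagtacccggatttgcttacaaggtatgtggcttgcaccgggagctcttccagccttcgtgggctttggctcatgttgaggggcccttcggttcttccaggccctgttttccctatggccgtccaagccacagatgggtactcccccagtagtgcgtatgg

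The coding part of the Rhox10 peak held 4 matches, in overlapping pairs, while the 300 central bases of the Rhox13 peak held 0 and 21 CpG dinucleotides. Over the 5143 peaks on assembled chromosomes, 26.8% held at least 1 match in their 300 central bases, with a median of 25 CpG. The central 300 bases of the Rhox10 peak held 4 matches and 10 CpG. Upstream, each of these 2 genes had 1 match. Of the 10 members, 7 had a RefSeq upstream window and 5 of those held a match (71.4%), against 55.3% of 27025 upstream windows in the genome and 58.9% of 1046 on the X chromosome. Rhox1 and Rhox12 had 4 matches each and Rhox4b and Rhox11 had 0. The Rhox5 window, which held 1 match, lies within X:37754358-37754657. It does not adjoin the GENCODE position of Rhox5, X:37804842-37808876, for which reads were counted. Rhox6, Rhox8 and Rhox9 are named only. A match is a description of letters and not of binding.

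Rhox10 itself was the member that differed most between the vectors. Its counts in the 12 empty-vector libraries ran from 2 to 27 reads (lowest 0.204, median 1.28, highest 2.44 CPM) and in the 12 Rhox10-ERT2 libraries from 353 to 540 reads (lowest 33.9, median 38.2, highest 46.7 CPM). The 2 sets did not overlap, at any of the 6 times. The averaged difference over 0.5 to 8 h was a log2 fold change of 5.30 (SE 0.193, edgeR adjusted p = 8.53e-16). The gene count does not separate the RNA of the vector from that of endogenous Rhox10, and the knockdown is shared by both vectors, so its size could not be measured.

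The level of Rhox10 RNA was already high at the first time. At 0 h it was 38.5 and 35.7 CPM with Rhox10-ERT2 and 1.52 and 1.16 CPM with the empty vector, a log2 fold change of 4.79 (SE 0.406, edgeR adjusted p = 2.40e-08). From 0.5 to 8 h the fold changes were 5.48, 4.69, 5.25, 6.31 and 4.76, and all were called. The difference did not pass the test of change from 0 h (edgeR F-test, adjusted p = 0.745), nor did the level over time within the Rhox10-ERT2 libraries (adjusted p = 0.889).

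**Figure D2:**
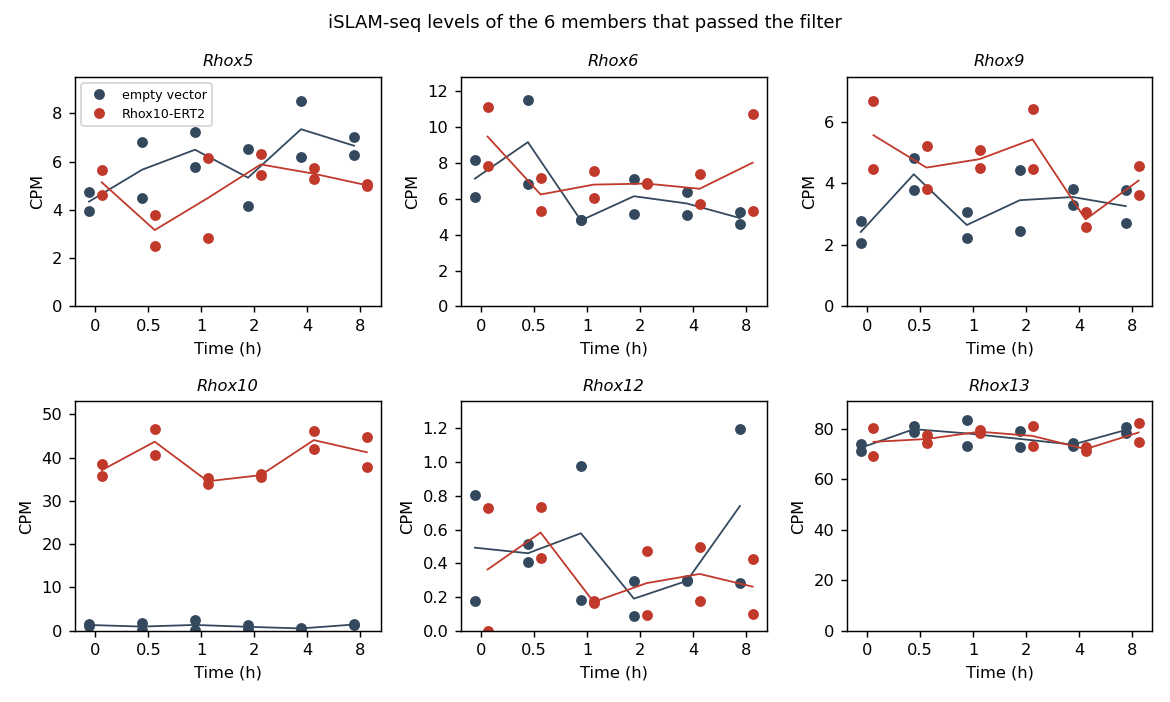
CPM of members in each of the 24 iSLAM-seq libraries by time (h), with points for libraries and lines for the mean of 2. Rhox10 is separated by vector at every time (0.204 to 2.44 CPM against 33.9 to 46.7 CPM), while the points of the other members overlap between vectors over the course.

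Of the 10 members, 6 passed edgeR's filter on low counts in iSLAM-seq and 2 of these were called in the averaged contrast, Rhox10 higher and Rhox5 lower. Over all 20642 genes tested, 37.1% were called, 18.7% higher and 18.4% lower. The members' median log2 fold change was 0.09, and that of all genes 0.00. Rhox10 is the gene that the vector supplies.

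Rhox13, the most abundant member in culture and one of the 2 with a RHOX10 peak, is a germ cell gene. It had 744 to 941 reads in the empty-vector libraries (lowest 71.1, median 76.4, highest 83.5 CPM) and 705 to 958 with Rhox10-ERT2 (lowest 69.4, median 76.2, highest 82.4 CPM). The ranges overlapped almost fully. The averaged log2 fold change was -0.02 (SE 0.0444, edgeR adjusted p = 0.752), and the values at single times lay between -0.08 (8 h) and 0.06 (0 h), with 0 of 6 called. Scaling to 16 germline genes, which moved the median of all genes to 0.20, gave 0.17 (adjusted p = 0.0279).

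Rhox5, the androgen-regulated founding member, was lower with Rhox10-ERT2 by a small margin. In order of time from 0 to 8 h, the pairs of empty-vector libraries had 3.95 and 4.74, 6.82 and 4.51, 7.23 and 5.77, 4.15 and 6.53, 6.19 and 8.50, and 7.03 and 6.30 CPM. The Rhox10-ERT2 pairs had 4.64 and 5.66, 2.52 and 3.81, 6.14 and 2.84, 6.33 and 5.45, 5.27 and 5.73, and 4.99 and 5.06 CPM. Both Rhox10-ERT2 libraries lay below both empty-vector libraries at 3 of the 6 times (0.5, 4 and 8 h). The same order held at 2 times for Rhox13 and at 1 each for Rhox9 and Rhox12. Rhox10 aside, the opposite order held at 3 times for Rhox9 and 2 for Rhox6. How often all genes had these orders was not counted. The averaged log2 fold change of Rhox5 was -0.41 (SE 0.148, edgeR adjusted p = 0.0318), no single time was called, and the value at 0 h was 0.25. Rhox5 had 31 to 87 reads per library. Leaving out any one of 12 of the 24 libraries ended the call (values from -0.54 to -0.32 over the 24, adjusted p over all alternatives from 0.00547 to 0.259), as did dropping the filter (adjusted p = 0.0525) and scaling to the germline genes (-0.21, adjusted p = 0.259). Those libraries were replicate 1 of 0.5, 1 and 8 h and replicate 2 of 2 and 4 h with the empty vector, and with Rhox10-ERT2 replicate 1 of 0.5, 4 and 8 h and replicate 2 of 1, 2, 4 and 8 h. The summed Sertoli markers ran from 304 to 554 CPM with the empty vector and from 396 to 698 CPM with Rhox10-ERT2, with 5 of 7 tested higher and 1 lower, and their part in the Rhox5 value was not tested.

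Rhox6 and Rhox9 encode closely related proteins that are known from the placenta, and their coding sequences of 681 bases were 90.8% identical, the highest of 45 member pairs (median 50.9%). Reads may therefore be split between them. Rhox9 at 0 h had 2.06 and 2.77 CPM with the empty vector and 4.45 and 6.67 CPM with Rhox10-ERT2, without overlap. This was the only time at which Rhox9 was called (log2 fold change 1.21, SE 0.360, edgeR adjusted p = 0.0321). The share of all genes without overlap at 0 h was not counted.

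The Rhox9 difference was not steady over time. Its log2 fold changes were 0.08, 0.87, 0.69, -0.33 and 0.27 from 0.5 to 8 h, and at 4 h both Rhox10-ERT2 libraries (3.07 and 2.58 CPM) lay below both empty-vector libraries (3.30 and 3.81 CPM). The averaged value was 0.31 (SE 0.159, edgeR adjusted p = 0.130) and the change from 0 h did not pass (adjusted p = 0.458). The call at 0 h ended without empty-vector replicate 1 (1.00) or 2 (1.43) or Rhox10-ERT2 replicate 2 (0.89) of that time, without the filter (adjusted p = 0.0650), and in a fit of that time alone (0.0713). The germline scaling made the averaged value 0.51 (adjusted p = 0.0196).

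Rhox6 showed wide spread in both vectors. It ranged from 4.60 to 11.5 CPM with the empty vector (median 5.67) and from 5.29 to 11.1 CPM with Rhox10-ERT2 (median 7.03). The averaged log2 fold change was 0.20 (SE 0.145, edgeR adjusted p = 0.312), and no time was called. Rhox12 had 0 to 12 reads per library, and its averaged value of -0.41 had an SE of 0.585 (adjusted p = 0.631), so a difference of that size was not detectable at this depth. Rhox4b and Rhox11, below the filter, were compared over 0.5 to 8 h by an exact permutation test within times (two-sided), which gave p = 0.917 and p = 0.5.

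**Figure D3:**
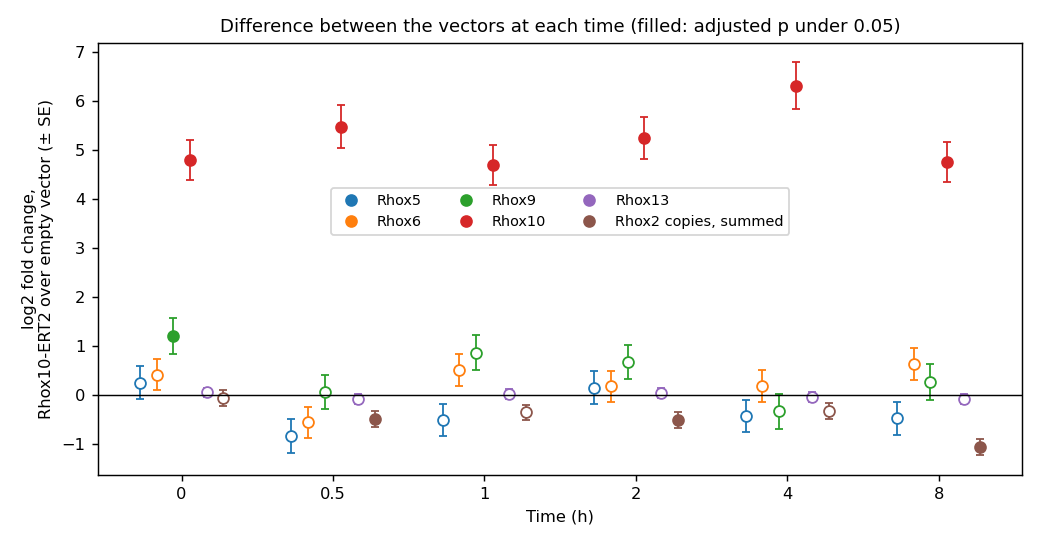
Log2 fold change (± SE) of Rhox10-ERT2 over empty vector at each time (h) for 5 members and for the summed Rhox2 copies, filled where the adjusted p is under 0.05. Rhox10 lies between 4.69 and 6.31 throughout, Rhox9 is filled at 0 h only (1.21), and Rhox13 stays between -0.08 and 0.06.

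At single times 2 of the 6 tested members were called at 0 h (Rhox9 and Rhox10) and 1 at each later time (Rhox10), all higher. Rhox10 is supplied by the vector, so its calls say nothing about the other members, and no other member was called from 0.5 to 8 h. Over all genes, in order of time from 0 to 8 h, the shares called were 10.9%, 14.5%, 9.91%, 10%, 12.2% and 16.8%, and those called higher 6.56%, 7.94%, 6%, 6.08%, 6.47% and 8.06%. The contrasts share the spread of all 24 libraries. In a fit of the 4 libraries at 0.5 h alone, 0 members were called, and without empty-vector replicate 1 of that time Rhox6 was called beside Rhox10. With edgeR, 0 members changed from 0 h (2.39% of all genes did), over time with the empty vector (5.74%) or over time with Rhox10-ERT2 (9.44%). At an unadjusted p under 0.05 the count was also 0 in each, as it was with DESeq2 after adjustment. Without empty-vector replicate 1 at 0.5 h, Rhox6 was called over time with the empty vector.

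The RNA-seq comparison asked which genes differ in germ cells without Rhox10, and the targeted gene was read first. Rhox10 had 11, 9, 4 and 6 reads in the libraries labelled Rhox10-null and 3, 10, 5 and 3 in those labelled wild-type. The groups overlapped and the libraries labelled Rhox10-null were not lower, at 1.03 ± 0.392 CPM against 0.716 ± 0.461 CPM (SD, n = 4 each, exact permutation test, two-sided, p = 0.286). The labels do not say which part of the gene was removed, so gene counts do not show whether the labels hold, and directions are those of the labels.

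Rhox8, the Sertoli-expressed member, was the only one called in RNA-seq. Its counts were 149, 133, 147 and 99 in the libraries labelled Rhox10-null and 159, 162, 106 and 177 in those labelled wild-type, or 18.2, 20.04, 19.9 and 14.7 CPM against 20.7, 21.9, 16.1 and 21.4 CPM of the library totals. On this scale the groups overlapped (18.2 ± 2.48 against 20.01 ± 2.68 CPM, SD, n = 4 each). With TMM scaling, which sets the typical gene to no change, it was lower, with a log2 fold change of -0.49 (SE 0.0935, edgeR adjusted p = 5.14e-05). Of the 10 members 2 passed the filter, and 1 was called, against 37.5% of 13538 genes tested, 18.6% higher and 18.9% lower.

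The direction for Rhox8 depended on what it was measured against. Library totals gave -0.14 (edgeR adjusted p = 0.199), with the median of all genes at 0.35 and 7229 genes higher against 629 lower. Scaling to the germline genes, 14 of 15 of which were lower under TMM, gave a positive value of 0.36 (adjusted p = 0.000663), with the median of all genes at 0.85 and 11983 genes higher against 77 lower. Beside the Sertoli markers, Rhox8 was lower: per 1000 reads of the 10 markers it had 25.8, 26.6, 26.5 and 20.3 reads in the libraries labelled Rhox10-null and 39.5, 38.6, 27.9 and 38.3 in those labelled wild-type. These groups did not overlap (24.8 ± 3.00 against 36.1 ± 5.47, SD, n = 4 each, exact permutation test, two-sided, p = 0.0286, the smallest that 70 arrangements allow). The summed markers were higher in the libraries labelled Rhox10-null (704 to 755 against 525 to 575 CPM), so a gene of unchanged CPM would also fall on this scale. The share of all genes that separate on it was not counted. In CPM of totals without Gm42418 the groups overlapped, at 38.1 ± 5.66 against 48.4 ± 6.67 (exact permutation p = 0.0857).

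The Sertoli markers themselves moved in both directions. Of 10 tested with edgeR, Amh (log2 fold change 0.43), the hormone of immature Sertoli cells, and Inhbb (0.20), a subunit of inhibin B, were higher, while Aard (-0.86) and Cldn11 (-0.73), a tight junction protein, were lower, with a list median of -0.08. Amh stood at 210 ± 10.8 CPM against 123 ± 9.20 CPM (SD, n = 4 each). The part of cell composition in the Rhox8 difference was not tested.

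Rhox5 had few reads in the sorted cells, and its groups did not overlap. It had 2, 4, 6 and 1 reads in the libraries labelled Rhox10-null and 7, 8, 8 and 10 in those labelled wild-type, 0.452 ± 0.310 CPM against 1.10 ± 0.141 CPM (SD, n = 4 each). Every library labelled Rhox10-null was below every one labelled wild-type, as for 1.47% of 5045 genes that missed the filter with at least 20 reads in all (15.6% had the opposite order). The exact permutation test gave p = 0.0286 (two-sided), the smallest possible, and with 6 members tested in this way it did not pass after adjustment for the 6 tests. Without the filter, edgeR called Rhox5 beside Rhox8. Per 1000 reads of the germ cell markers, which were themselves lower in the libraries labelled Rhox10-null, Rhox5 stood at 3.75 ± 2.54 against 5.68 ± 0.677 with overlap (exact permutation p = 0.257).

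Rhox13 was low in the sorted cells. It had 12, 6, 10 and 4 reads in the libraries labelled Rhox10-null and 7, 11, 8 and 12 in those labelled wild-type, with overlap. Its log2 fold change was -0.54 (SE 0.339, edgeR adjusted p = 0.214) under TMM and 0.30 (adjusted p = 0.408) under the germline scaling. Per 1000 reads of the germ cell markers it stood at 9.02 ± 3.25 against 6.50 ± 1.32 (SD, n = 4 each, exact permutation test, two-sided, p = 0.257).

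The remaining members gave no difference that could be read at this depth. Rhox1 had 2 to 10 reads per library, Rhox4b 2 to 7, Rhox6 0 to 3 and Rhox9 0 to 4, and their groups overlapped. Exact permutation tests (two-sided) gave p = 0.4 for Rhox9, p = 0.686 for Rhox1 and Rhox4b, and a larger p for Rhox6. For Rhox11 and Rhox12 both groups were at 0 reads, so no fold is given.

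**Figure D4:**
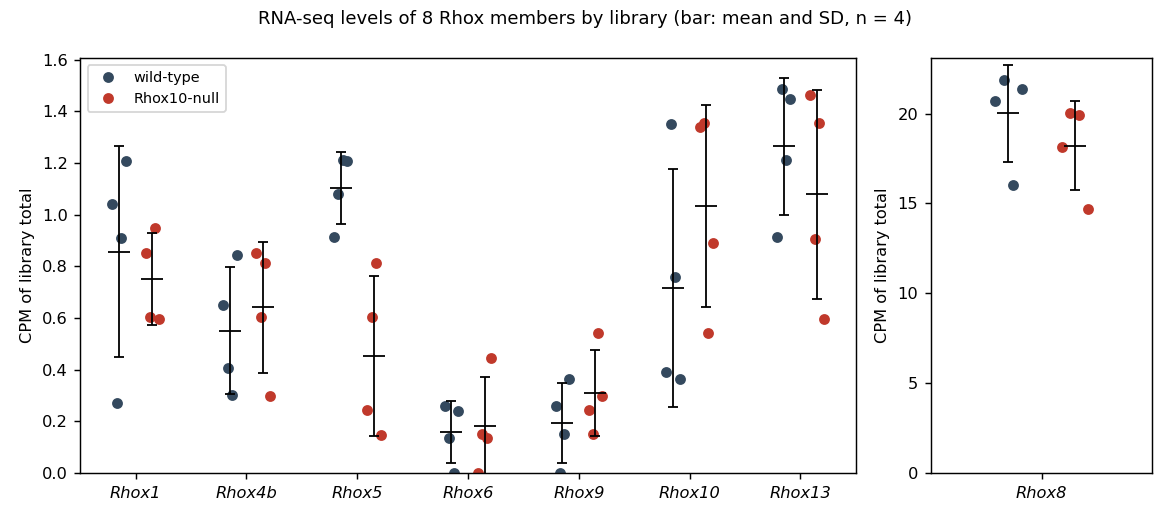
CPM of library totals for members with reads in the 8 RNA-seq libraries, with points for libraries and bars for mean ± SD of 4. Rhox8 overlaps between genotypes on this scale (14.7 to 20.04 against 16.1 to 21.9 CPM), Rhox5 does not (0.149 to 0.813 against 0.912 to 1.21 CPM), and Rhox10 is not lower in the libraries labelled Rhox10-null.

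The other 32 Rhox genes are mostly copies of Rhox2, Rhox3 and Rhox4, and 13 of them reached 10 reads in a library (Rhox2a, Rhox2b, Rhox2c, Rhox2d, Rhox2g, Rhox3c, Rhox4a, Rhox4a2, Rhox4c, Rhox4d, Rhox4e, Rhox4g and Rhox7-ps2). Coding sequences of the 8 Rhox2 copies were 93.7% to 99.7% identical and those of the 8 Rhox4 copies, of which Rhox4b is one, 98.2% to 100%. Counts of single copies are therefore uncertain. The copies were summed, a choice made after seeing the data.

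The summed Rhox2 copies were lower with Rhox10-ERT2 in culture. At 0 h they stood at 24.6 and 23.8 CPM with the empty vector against 24.3 and 21.8 CPM with Rhox10-ERT2. After 8 h the values were 23.1 and 28.0 CPM against 13.9 and 11.8 CPM. From 0.5 h on, both Rhox10-ERT2 libraries lay below both empty-vector libraries at each time, and the share of all genes with this order was not counted. The averaged log2 fold change was -0.54 (SE 0.0722, edgeR adjusted p = 2.17e-06), and -0.35 (adjusted p = 0.00244) under the germline scaling. The value was -0.06 at 0 h and -1.05 at 8 h (adjusted p = 9.31e-05), and the change over time within the Rhox10-ERT2 libraries passed (adjusted p = 0.00990). The change of the difference between vectors from 0 h did not (adjusted p = 0.186). Most of the reads were assigned to Rhox2c, which gave -0.56 (adjusted p = 2.75e-06).

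In the sorted cells the summed Rhox2 copies had 4.51, 5.27, 4.88 and 4.01 CPM in the libraries labelled Rhox10-null and 1.17, 2.43, 1.51 and 3.38 CPM in those labelled wild-type. The groups did not overlap, with the libraries labelled Rhox10-null higher. On this scale the median of all tested genes was 0.35, and 7229 of 13538 were called higher against 629 lower. The share of tested genes with such an order was not counted. Among 5045 genes that missed the filter it was 15.6%, but the sum passed the filter, so that share is not its background. Under TMM the sum was also higher (log2 fold change 0.76, SE 0.228, edgeR adjusted p = 0.00795), although without wild-type replicate 1 the call ended (0.54, adjusted p = 0.0591). The summed Rhox4 copies had 6.09, 5.12, 8.80 and 6.69 CPM against 3.00, 3.79, 4.85 and 4.23 CPM, also without overlap, and their log2 fold change was 0.42 (SE 0.175, adjusted p = 0.0544) under TMM and 0.77 (adjusted p = 0.000213) on library totals. In culture the Rhox4 sum gave -0.23 (adjusted p = 0.526).

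**Figure D5:**
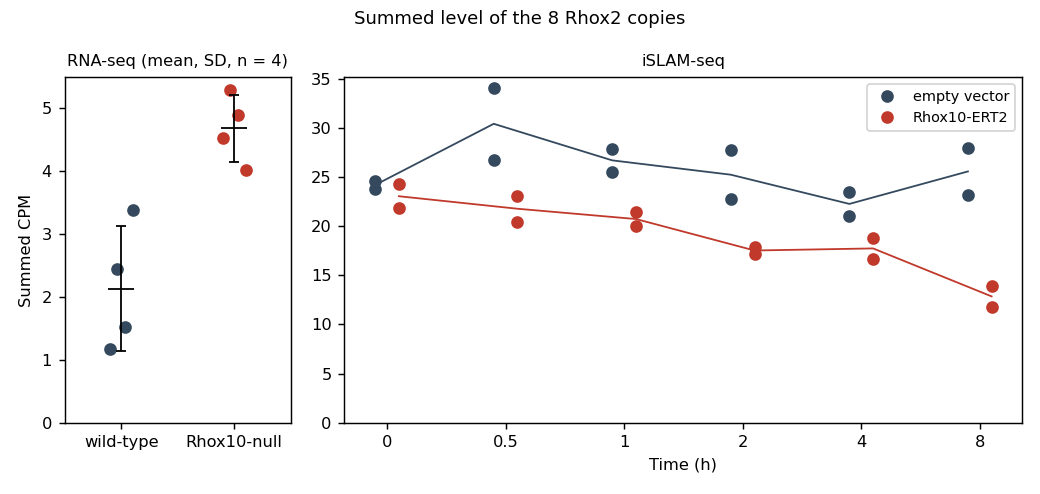
Summed CPM of the 8 Rhox2 copies in 8 RNA-seq libraries (points, with mean and SD of 4) and in 24 iSLAM-seq libraries by time (h; points for libraries, lines for the mean of 2). The copies are higher in the sorted cells labelled Rhox10-null (4.01 to 5.27 against 1.17 to 3.38 CPM) and lower with Rhox10-ERT2, down to 11.8 and 13.9 CPM at 8 h.

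Genes around the cluster and genes that act on X-linked germline loci were read beside the members. Of 24 protein-coding genes within 500 kb, 15 were tested in RNA-seq, with 2 higher (Lamp2, 0.41, and C330007P06Rik, 0.37) and 3 lower (among them Cul4b, -0.40, and Zbtb33, -0.39). In the averaged iSLAM-seq contrast 19 were tested, with 5 higher (led by Ndufa1, 0.67, and Ube2a, 0.40) and 5 lower (led by Atp1b4, -1.49, and Upf3b, -0.45). The called neighbours, 5 of 15 and 10 of 19, stand beside 37.5% and 37.1% of all genes in these comparisons, about evenly split by direction in each.

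Rhox genes are known to be silenced by DNA methylation in many tissues. Of 15 genes of DNA methylation and silencing, RNA-seq called 6 higher, led by the demethylating enzymes Tet2 (0.55) and Tet1 (0.43), and 5 lower, led by the de novo methyltransferase Dnmt3b (-0.68) and Uhrf1 (-0.65), the partner of Dnmt1 in maintenance methylation, with a median of 0.02. The averaged iSLAM-seq contrast called 2 higher (Tet2, 0.66, and Tet3, 0.27) and 6 lower, led by Uhrf1 (-0.50) and the chromatin remodeller Hells (-0.39), with a median of -0.06. The called counts of 11 of 15 and 8 of 15 stand beside 37.5% and 37.1% of all genes. At 0 h Tet2 (1.07, edgeR adjusted p = 0.000817) and Uhrf1 (-0.44, adjusted p = 0.00376) were already called.

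Other X-linked homeobox and germ cell genes had a median below 0 in both assays. In RNA-seq 8 of 11 tested were lower, led by the meiotic gene Tex11 (-2.43) and Usp26 (-1.65), with a median of -0.75. In iSLAM-seq 2 of 12 were higher (Pou3f4, 2.36, and Tktl1, 1.15) and 6 lower (led by Usp26, -0.53, and Taf7l, -0.45), with a median of -0.21. Germ cell markers moved with them: 7 of 9 were lower in RNA-seq (Zbtb16 by -1.66 and Gfra1 by -1.57 on the log2 scale, median -0.91), and in iSLAM-seq 6 of 11 were lower (Nanos2, -0.95, and Gfra1, -0.75) and 2 higher (Stra8, 0.41, and Kit, 0.30). Over all genes, 18.9% were called lower in RNA-seq, and 18.4% lower and 18.7% higher in iSLAM-seq. At 0 h, 4 of 11 germ cell markers were already called lower (led by Nanos2, -1.46, edgeR adjusted p = 0.00483) and 1 higher (Stra8, 0.60, adjusted p = 0.00202). Of the X-linked genes, 4 of 12 were lower at 0 h (led by Usp26, -0.46) and 1 higher (Tktl1, 0.76), when 10.9% of all genes were called. The part of the germ cell markers in the values of the X-linked genes was not tested.

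Across the 24 iSLAM-seq libraries, which share vectors and times, the genes most like each of the 3 most abundant members other than Rhox10 were found among 12060 genes by Pearson's r of log2 CPM, as a description. For Rhox13 they were Fam228b (0.73), Gm17201 (0.65) and Mms19 (0.64). For Rhox6 they were R3hdm4 (0.82), Lamtor4 (0.72) and Nagk (0.72), and for Rhox5 Cfp (0.75), Wdr53 (0.74) and Hook2 (0.73). Among members the highest r was 0.51, between Rhox6 and Rhox9, which may share reads.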

How the data were processed

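Gene values are read counts, not normalized, as deposited by the authors in 2 tables, and both tables also give each gene's exon length, a column of another unit, per the file headers. The submitters' processing notes name STAR 2.5.2b, Subread, featureCounts, DESeq2 and GRCm38 for RNA-seq, limma 3.42.2 and mm10 for iSLAM-seq, and Bowtie2 2.2.5, SAMtools, HOMER and mm10 for CUT&Tag, without role or order. The RNA-seq kit was directional, per the labels; the strand setting of the counting, and whether iSLAM-seq counted all reads or only converted ones, are not given in the sources used here. The peak table gives a score per peak and a distance to a start site, as deposited by the authors. Only this table was used for CUT&Tag; how the control libraries entered the peak calls is not given in the sources used here.

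Counts were tested with edgeR 4.0.16 (quasi-likelihood, TMM scaling, filterByExpr) in R 4.3.3 with limma 3.58.1, on all genes, with Benjamini-Hochberg adjustment and calls under 0.05. RNA-seq was fitted by genotype and iSLAM-seq by 12 groups of vector and time over 24 libraries. The averaged contrast is the mean of the 5 differences from 0.5 to 8 h. Members below the filter were compared by exact permutation of CPM, every arrangement enumerated in Python 3.11.15 with numpy 2.4.6. In simulated counts, 200 genes were changed between genotypes or between vectors. The RNA-seq test recovered 173 of them among 13276 genes with 11 false calls, and the averaged contrast 152 among 19935 genes with 13. The iSLAM-seq simulation also raised another 200 genes at 8 h alone. Calls of these were not counted as false in the averaged contrast. The test of change from 0 h recovered fewer, 116 of the 200 genes raised at 8 h alone, with 7 false calls. The share of changed genes was smaller in the simulations than the share called in the data. CPM values are of library totals.

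Named were all 10 members; other Rhox genes with 10 reads in a library; the called pair of largest change per direction of each other list; and the genes most like Rhox13, Rhox6 and Rhox5 among those with a mean of at least 5 CPM. The members and lists were chosen with earlier results of these data known. The lists were markers of germ cells and of 6 somatic or blood types, 16 germline genes for scaling, silencing genes, other X-linked genes, of which 1 result is not reported here, and neighbours. Of the marker lists not described elsewhere, Leydig (4 of 4 tested), peritubular and stromal (5 of 5), endothelial (2 of 3), macrophage (1 of 3) and erythroid (4 of 4) genes were higher in the RNA-seq libraries labelled Rhox10-null, and 0 were lower. In the averaged iSLAM-seq contrast 0 of 2 Leydig genes were called, 3 of 5 peritubular and stromal genes were higher and 1 lower, and 3 of 3 endothelial, 1 of 2 macrophage and 1 of 2 erythroid genes were lower. Replicate numbers recur across groups, but deviations of same-numbered libraries did not correlate, so they were not paired. The labels call the iSLAM-seq replicates biological; nothing says that the RNA-seq pools of 1 genotype came from separate animals, and p-values there measure the spread between these samples. Alternatives were DESeq2 1.42.0, its size factors, library totals, no filter, a replicate block, removal of genes above 1% of a library, a germline scaling, fits of 1 time, each library left out, and other peak rules. The germline scaling of iSLAM-seq, the summed copies and values per 1000 marker reads were added after seeing the data.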

Additional observations from a re-analysis of the deposited data

How the results depend on the processing

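Of 890 alternative values, 821 kept their direction and their side of the threshold or, where the value was a count, stayed equal or close. Of the rest, 25 became weaker, 7 stronger, 24 moved and 13 changed sign. In RNA-seq, library totals left 0 members called and no filter called 2. In the averaged iSLAM-seq contrast no filter called 1, and leaving out single libraries gave 1 to 2. The germline scaling changed which members were called in that contrast: Rhox5 was no longer called, while Rhox9 and Rhox13 were. Counts alone do not show such a change. At 0 h no filter called 1, a fit of that time alone 1, and single libraries left out 1 to 2. At 0.5 h a fit of that time alone called 0, and single libraries left out gave 1 to 2. Change over time with the empty vector gave 0 to 1 with a library left out. Peaks above the median score left 0 at members. The cause of these moves was not tested.

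With the germline scaling Rhox8 became 0.36 and Rhox13 0.30 in RNA-seq, and Rhox13 became 0.17 in the averaged iSLAM-seq contrast. With single libraries left out Rhox13 ran there from -0.0334 to 0.00701, and it changed sign, to 0.000816, 0.00701 and 0.00516, without Rhox10-ERT2 replicate 1 at 2 h, replicate 1 at 8 h, and empty-vector replicate 2 at 1 h. On TMM-scaled CPM the RNA-seq differences of Rhox4b and Rhox6 became -0.0551 and -0.0176. Rhox6 became -0.0640 without Rhox10-null replicate 4 and -0.0294 without wild-type replicate 3 (highest value 0.0847), and Rhox1 became 0.00912 without wild-type replicate 4 (lowest value -0.303). Rhox4b in iSLAM-seq became 0.00509 without empty-vector replicate 1 at 2 h and 0.0138 without replicate 2 at 1 h (lowest value -0.0185). With the replicate number as a block, Rhox8 was -0.49 (edgeR adjusted p = 1.80e-05) and Rhox5 -0.41 (0.0362), and the calls among members did not change; the numbers did not pair the samples (r from -0.0192 to 0.0353). The block made the summed Rhox4 copies pass (0.41, adjusted p = 0.0441). Depth limits Rhox1, Rhox4b, Rhox6 and Rhox9 in RNA-seq and Rhox4b, Rhox11 and Rhox12 in iSLAM-seq.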
